A study of Mus musculus with 12 samples.

Results

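The forkhead (Fox) and Sox transcription factors were followed across stromal cells of the mouse gut. The set holds every protein-coding gene of the deposited count table with a symbol of the form Fox plus a letter from a to s and a number, or Sox plus a number. Foxf1, Foxf2, Foxl1, Foxc2, Foxd3, Sox10 and Sox17 were left out of it by rule. This left 43 genes, 28 Fox and 15 Sox, of 32052 genes in the table, and 30 of the 43 had enough counts to be tested. The cells were sorted as negative for EPCAM and CD45 and then by a GFP reporter of Rspo3, the gene for the Wnt-enhancing ligand R-spondin 3. The 12 libraries were total RNA in 4 groups of 3, by tissue (small intestine or colon) and by GFP state (negative or positive). All groups came from animals of 8 to 12 weeks on a C57Bl6 background carrying the Rspo3-GFP transgene. The labels do not say that replicates are separate animals, so the p-values measure the spread between these libraries, which may be technical.

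Fox proteins bind DNA through a winged-helix domain, and Sox proteins bend it through an HMG box related to that of Sry. Both families act in development by opening or holding regulatory regions for one cell type or another. In the gut, Foxa factors belong to the epithelium, while Foxc and SoxF factors (Sox7, Sox17, Sox18) are known from vessels. FoxO factors are held out of the nucleus by PI3K and AKT signalling. SoxD factors (Sox5, Sox6, Sox13) lack a transactivation domain of their own and are best known as partners of Sox9 in cartilage.

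Library totals ran from 6489835 to 12286054 counts, of which the 43 genes took 6346 to 14102, and 27 to 36 of them had a count in a given library. Rspo3 itself was at 4.50 to 13.7 CPM in the GFP-negative and 191 to 196 CPM in the GFP-positive libraries of the small intestine. In the colon it was at 2.28 to 6.51 and 117 to 161 CPM, so the sort and the labels go the same way. CPM here are counts scaled to a fixed library size after TMM scaling (edgeR's CPM). The fibroblast gene Col1a1 was at 1570 CPM or more in every library. Markers of cells the sort should remove were still seen: Epcam reached 182 CPM in the colon GFP-negative libraries and 170 CPM in the colon GFP-positive ones. The third GFP-negative library of the small intestine stood apart, with Ptprc (CD45) at 304 CPM and a B and plasma cell marker sum of 9010 CPM, against 30.5 to 319 CPM in the other libraries. Each call of a Fox or Sox gene that uses this library was kept without it.

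Foxc1 and Foxo1 were the genes of the set whose GFP difference itself differed between colon and small intestine, and their upstream letters are shown for that reason. Each line gives the 250 bases before the RefSeq start of the gene on the plus strand of GRCm38.p6, 5′ to 3′, for Foxc1 at chr13:31806396-31806645 and for Foxo1 at chr3:52268087-52268336. Capitals mark the matches to an ETS core (CCGGAA) or a GC box (GGGCGG), searched on both strands.
Foxc1: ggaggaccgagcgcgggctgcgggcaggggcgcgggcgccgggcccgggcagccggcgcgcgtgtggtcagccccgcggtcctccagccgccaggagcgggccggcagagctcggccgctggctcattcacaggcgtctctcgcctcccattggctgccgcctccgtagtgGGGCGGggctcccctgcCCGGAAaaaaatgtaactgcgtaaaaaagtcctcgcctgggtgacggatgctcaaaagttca
Foxo1: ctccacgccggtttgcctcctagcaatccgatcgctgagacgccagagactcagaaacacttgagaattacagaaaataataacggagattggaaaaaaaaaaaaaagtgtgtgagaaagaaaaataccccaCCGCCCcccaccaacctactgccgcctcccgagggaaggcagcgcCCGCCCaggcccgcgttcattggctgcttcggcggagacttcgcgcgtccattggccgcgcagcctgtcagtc
The Foxc1 window was 70.8% G or C and held 1 ETS core and 1 GC box. The Foxo1 window was 56.0% G or C and held 2 GC boxes, both read from the reverse strand. The end of each window overlaps an exon annotated in GENCODE. The median over all promoters was 52.4%. Neither window held the forkhead core TGTTTAC or the Sox core AACAAT in these letters. Over all 32851 RefSeq promoters of this length, 3.17% held the forkhead core, 9.42% the Sox core, 12.03% the ETS core and 32.74% the GC box. RefSeq promoters were matched for 28 of the 43 genes, 38 promoters in all. The forkhead core was in those of Foxa1 and Sox12, the Sox core in those of Foxp1 and Sox6, and the GC box in 23 of the 38. The matches marked in each printed window do not overlap one another, and a match describes the sequence only.

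Levels between genes were compared per length, as TPM rescaled to the same total over the protein-coding genes of each library. Foxp1, a repressor that pairs with Foxp2 and Foxp4, had the highest mean level per length, 180 TPM (87.3 to 286 over the 12 libraries). Foxn3, a checkpoint repressor, averaged 126 TPM (59.2 to 236) and Foxj3 125 TPM (96.6 to 172), so the order of the highest members is within their spread. Next came Foxp2 at 74.7 TPM, Sox18 at 52.9, Foxo3 at 43.3, Foxp4 at 42.7, Sox5 at 39.0, Sox6 at 31.9 and Sox13 at 31.0. Among these 10 the highest library exceeded the lowest by most for Sox6 (0.471 to 90.6 TPM), Sox18 (4.75 to 122), Sox5 (8.44 to 123) and Foxp2 (14.9 to 176), and by least for Foxj3 and Foxo3 (31.0 to 66.8).

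Of the tested genes, 12 were called in at least 1 of the 5 comparisons. Their annotated positions (GENCODE M21, GRCm38) put the Fox genes among them at separate loci, Foxa1 at chr12:57540628-57546916, Foxc1 at chr13:31806633-31812476, Foxo1 at chr3:52268336-52353221, Foxp1 at chr6:98925338-99522721, Foxp2 at chr6:14901349-15441977 and Foxp4 at chr17:47867133-47924645. The Sox genes among them are Sox4 at chr13:28948919-28953713, Sox6 at chr7:115470872-116038796, Sox7 at chr14:63943673-63950732, Sox12 at chr2:152393611-152398063, Sox13 at chr1:133382303-133424377 and Sox18 at chr2:181669836-181671640. The deposited counts are per gene, so the transcripts of a gene are not separated.

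**Figure D1:**
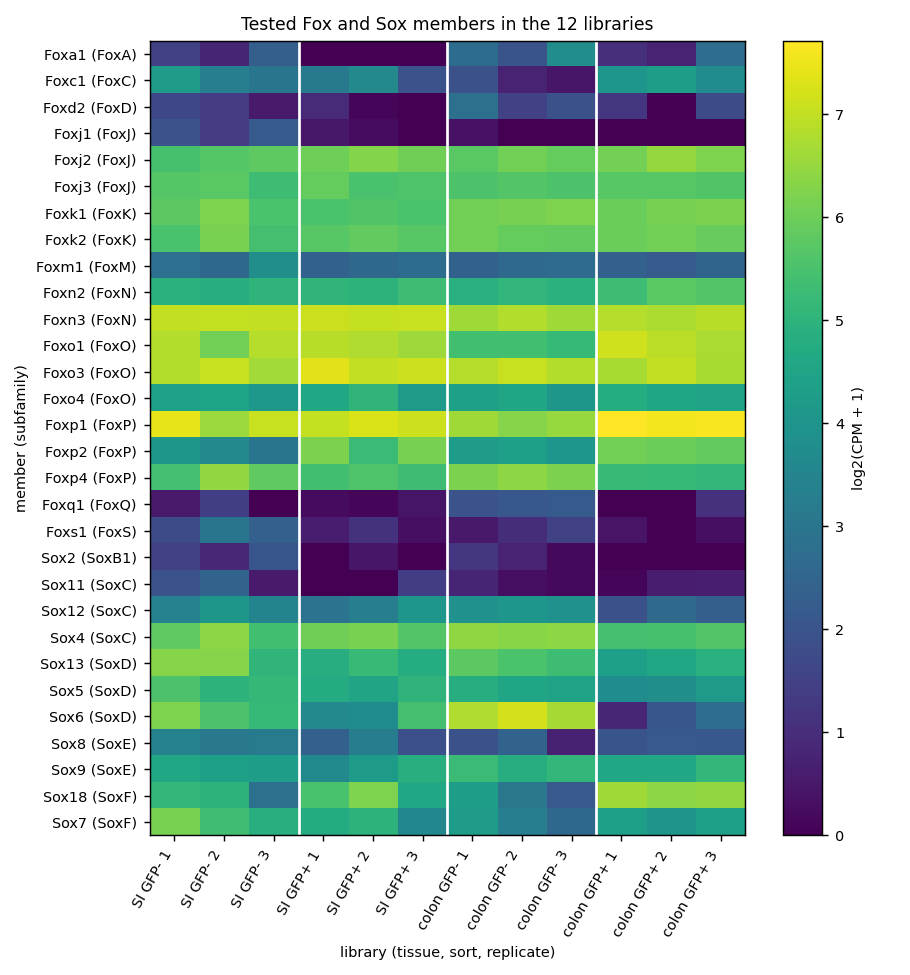
Level of each tested Fox and Sox gene in the 12 libraries, rows by gene and columns by library and group. Colour gives log2(CPM + 1). Sox6 and Sox18 differ clearly between the GFP-negative and GFP-positive colon libraries, while Foxj3 (38.8 to 58.6 CPM) and Foxn3 (96.6 to 137 CPM) are close to even.

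The colon comparison asked which genes differ between GFP-positive and GFP-negative stroma there. In colon GFP-positive cells 5 members were higher, Foxc1, Foxo1, Foxp1, Foxp2 and Sox18, and 4 were lower, Sox6, Sox12, Foxp4 and Sox4. That is 9 of 30 tested members (30%), beside 8.69% of all 16757 tested genes (4.62% higher and 4.06% lower) by edgeR's quasi-likelihood test at an adjusted p under 0.05. In each of the 9 the 3 GFP-positive and the 3 GFP-negative libraries did not overlap. This only describes calls made from the same libraries. The share without overlap over all tested genes was not counted.

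Foxc1, a factor of vessel and mesenchyme development, was at 2.79, 0.685 and 0.38 CPM in the colon libraries without GFP and 15.5, 18.8 and 12.1 CPM in those with GFP. Every GFP-positive library was above every GFP-negative one, by 3.61 ± 0.70 on the log2 scale (SE, adjusted p = 0.00629). Sox18, the SoxF factor that switches on Prox1 when lymphatic vessels form, was at 19.1, 7.31 and 3.42 CPM without and 97.5, 83.6 and 86.7 CPM with GFP. The GFP-positive libraries were close together and the GFP-negative ones ranged widely. The difference was 3.18 ± 0.72 (adjusted p = 0.0192), and it lost its call without colon GFP-negative replicate 2 (0.0871) or 3 (0.0589), without GFP-positive replicate 1 (0.0539) or 2 (0.0504), and with no filter on low counts (0.0772). Sox7, the other SoxF member of the set, was at 18.0, 8.91 and 4.94 CPM without and 19.4, 14.9 and 19.9 CPM with GFP, and those groups overlapped (0.77 ± 0.49, adjusted p = 0.447).

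Foxo1, the FoxO factor tied to endothelial quiescence and metabolism, was at 40.5, 40.7 and 35.0 CPM in the colon GFP-negative libraries and 142, 119 and 106 CPM in the GFP-positive ones. The gap was larger than the spread in either group, at 1.66 ± 0.22 log2 (adjusted p = 0.000592). Its relatives did not pass the test: Foxo3 gave -0.11 ± 0.17 (adjusted p = 0.814) and Foxo4 0.26 ± 0.25 (adjusted p = 0.664). Foxo3 is the other widely expressed FoxO factor, at 114, 134 and 113 CPM without and 103, 127 and 104 CPM with GFP.

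The FoxP factors, which bind DNA as dimers with one another, split. Foxp2, best known from language circuits of the brain, was at 18.3, 19.6 and 15.5 CPM without and 66.5, 61.8 and 56.7 CPM with GFP in the colon, a difference of 1.79 ± 0.30 (adjusted p = 0.0027). Foxp1 was at 97.5, 78.6 and 91.4 CPM without and 209, 191 and 199 CPM with GFP (1.16 ± 0.21, adjusted p = 0.00358). Foxp4 went the other way, from 72.0, 83.7 and 71.4 CPM to 36.8, 34.6 and 33.7 CPM (-1.11 ± 0.23, adjusted p = 0.00955). So GFP-positive colon stroma held more Foxp1 and Foxp2 and less Foxp4 mRNA, each with tight replicates. On the log2(TPM + 1) scale the calls of Foxp2 (adjusted p = 0.092) and Foxp1 (0.289) were lost, and with a pseudocount of 0.1 that of Foxp4 was lost too (0.0613).

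Sox6, a SoxD factor, showed the widest called difference of the set in the colon. It was at 109, 147 and 102 CPM in the GFP-negative and 0.769, 3.17 and 5.94 CPM in the GFP-positive libraries, a fall of 5.18 ± 0.73 log2 (adjusted p = 0.00152). Sox12, a SoxC factor of progenitor cells, was at 14.1, 15.6 and 13.8 CPM without and 2.75, 5.41 and 4.0 CPM with GFP (-1.84 ± 0.38, adjusted p = 0.00887, and 0.0501 without GFP-positive replicate 1). Sox4, the SoxC factor with the highest CPM, was at 86.2, 80.5 and 84.1 CPM without and 42.1, 43.4 and 48.9 CPM with GFP. Its difference of -0.90 ± 0.24 (adjusted p = 0.0326) was not called in any of the 6 fits that left out a colon library, where the adjusted p ran from 0.0652 without GFP-positive replicate 3 to 0.134 without GFP-positive replicate 1. On the log2(TPM + 1) scale it was 0.0572. The SoxD relatives of Sox6 did not pass edgeR's test in the fit of all 12 libraries: Sox5 gave -0.71 ± 0.23 (adjusted p = 0.0835). Sox13 was at 53.8, 45.5 and 38.9 CPM without and 19.4, 23.9 and 28.6 CPM with GFP, groups that did not overlap, and gave -0.94 ± 0.31 (0.0858). Sox13 was called lower by DESeq2 (0.032) and with no filter on low counts (0.0383). With only these 2 groups in the fit, Sox13 (0.00474) and Sox5 (0.029) were both called lower. Foxa1 was at 5.57, 2.97 and 12.7 CPM without and 1.1, 0.66 and 5.83 CPM with GFP, which overlapped (-1.47 ± 0.94, adjusted p = 0.458).

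**Figure D2:**
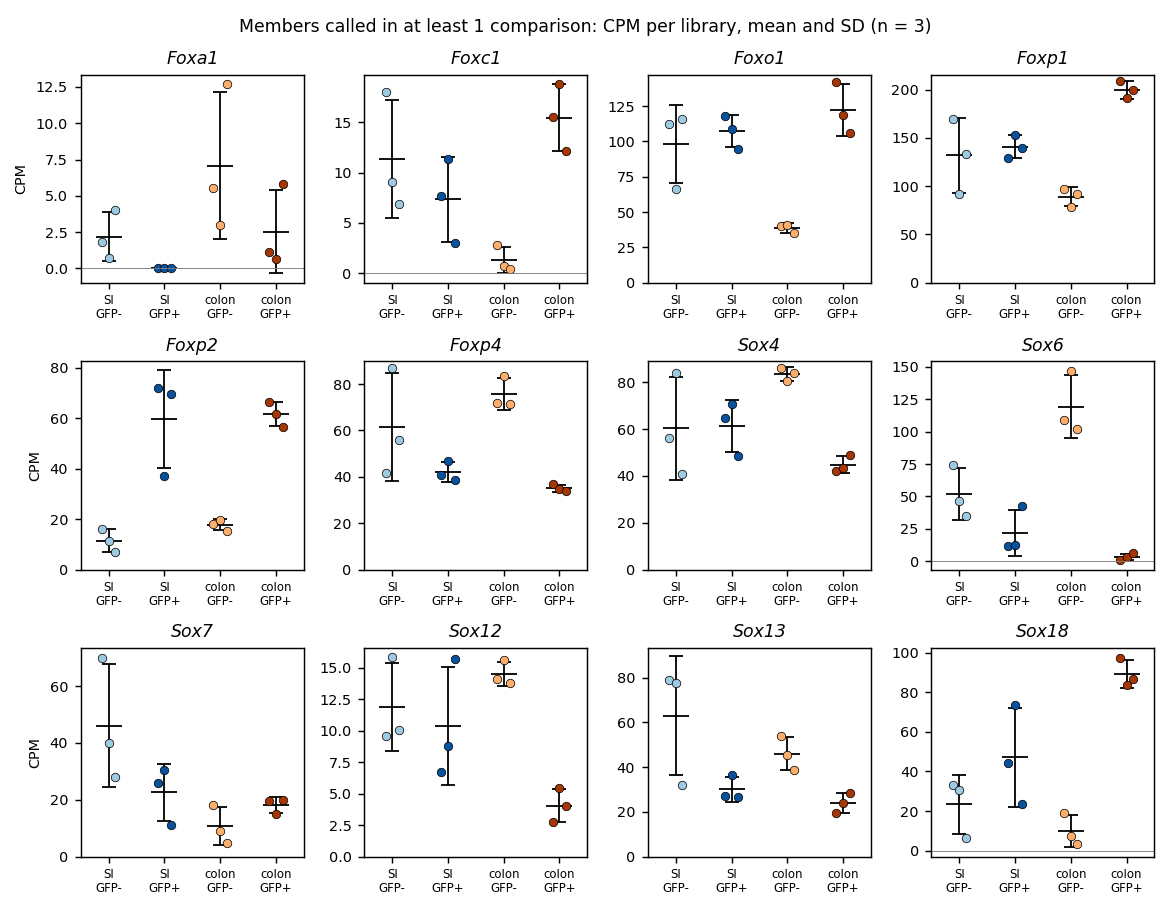
CPM of the 12 members called in at least 1 comparison, with 1 panel per gene on its own axis, points for libraries and bars for group means with SD (n = 3). In the colon, Foxo1, Foxp1, Foxp2 and Sox18 sit higher and Sox6, Sox12, Foxp4 and Sox4 lower in the GFP-positive libraries, with no overlap.

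Markers of several cell types moved with these genes in the colon. The pan-endothelial sum was 372 to 850 CPM in the colon GFP-negative and 2450 to 2950 CPM in the GFP-positive libraries, and 10 of its 12 markers were called higher. The lymphatic endothelial sum was 625 to 803 and 19300 to 22600 CPM. No marker of the pan-endothelial list was at 0 in a group. The blood endothelial sum was 461 to 1140 and 854 to 941 CPM, but its 13 markers split, with 3 called higher and 5 lower (median -2.56 log2). The telocyte and villus tip fibroblast sum, of cells that line the epithelium, was 1220 to 1310 without and 163 to 215 CPM with GFP, and 9 of its 12 markers were called lower. The smooth muscle sum was 4090 to 5060 and 1050 to 1110 CPM (8 of 11 markers lower) and the enteric glia sum 372 to 494 and 152 to 177 CPM (5 of 11 lower). The Cajal cell sum was 697 to 872 and 360 to 418 CPM (5 of 7 lower) and the pericyte sum 499 to 827 and 220 to 236 CPM (4 of 9 lower). Trophocyte markers, of Rspo3-expressing fibroblasts, were 2720 to 3400 and 7680 to 7830 CPM (5 of 13 higher). In these bulk libraries a change in the number of cells of a type and a change in RNA per cell cannot be told apart, and the part of these cells in the Fox and Sox differences was not tested.

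**Figure D3:**
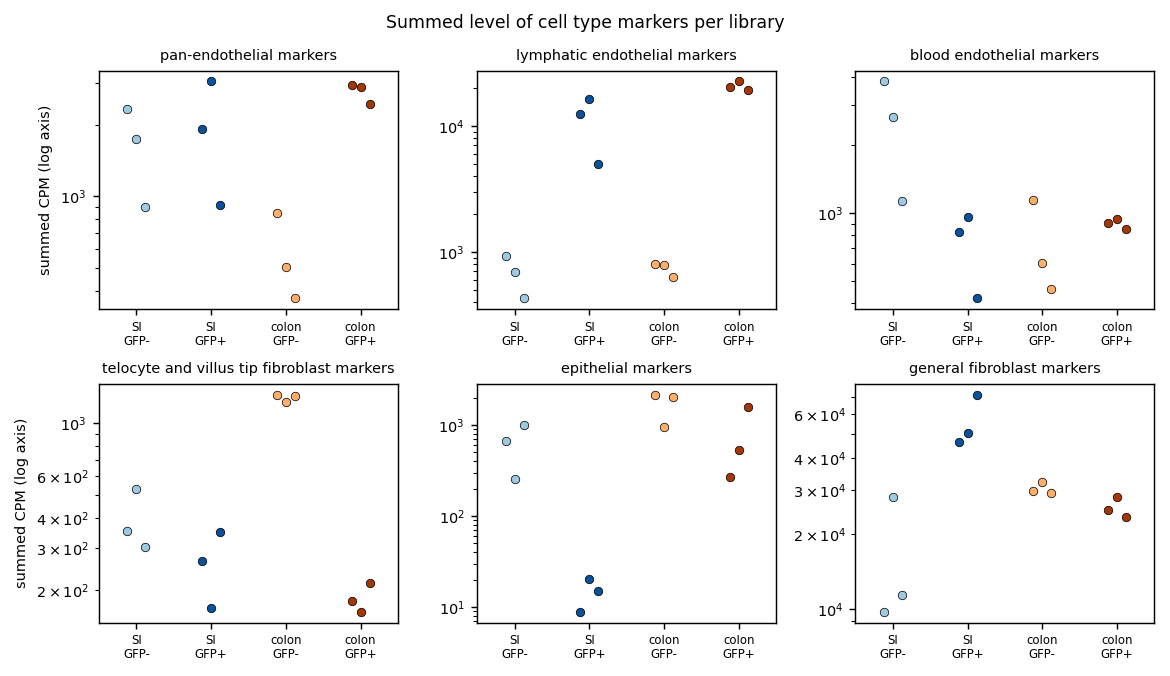
Summed CPM of the cell type marker lists in each library, by group, in CPM on a log axis. The lymphatic sum is higher in both GFP-positive groups, the pan-endothelial sum in the colon, and the telocyte sum is highest in colon GFP-negative libraries.

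In the small intestine 3 members were called between GFP-positive and GFP-negative stroma: Foxp2 was higher and Foxa1 and Sox13 lower. That is 10% of the 30 tested, beside 10.9% of all tested genes (4.24% higher and 6.63% lower), so the count is near the background. Foxp2 was at 16, 11.4 and 6.91 CPM without and 72.0, 37.3 and 69.5 CPM with GFP. The libraries did not overlap, the difference was 2.37 ± 0.31 (adjusted p = 0.000629), and it was called in each of the 6 fits that left out a small intestinal library. Foxa1, a pioneer factor of endodermal epithelium, was at 1.8, 0.731 and 4.02 CPM without GFP and at 0 in all 3 GFP-positive libraries. Against a floor of 3 counts over that group it was at least 19.9-fold lower (adjusted p = 0.0131). The call was lost with voom (adjusted p = 0.118), on the log2(TPM + 1) scale (0.664) and with only these 2 groups in the fit (0.0795). The epithelial sum was 254 to 1000 CPM without and 8.9 to 20.5 CPM with GFP in the same libraries, 8 of the 14 tested markers were called lower and Tff3 was at 0 in the GFP-positive group. Other lists moved in the small intestine too. The lymphatic endothelial sum was 426 to 923 CPM without and 4990 to 16500 CPM with GFP (10 of 11 markers higher) and the general fibroblast sum 9800 to 28100 and 46700 to 71700 CPM (11 of 13 higher). Trophocyte markers were 2070 to 3920 and 10900 to 18000 CPM (9 of 13 higher, 1 lower). The blood endothelial sum was 1130 to 3820 and 421 to 961 CPM (10 of 13 lower, 1 higher), with Sox17 at 0 with GFP. The enteric glia sum was 591 to 1030 and 122 to 216 CPM (11 of 11 lower), the smooth muscle sum 2010 to 5330 and 1380 to 1510 CPM (7 of 11 lower) and the pericyte sum 570 to 1990 and 484 to 668 CPM (5 of 9 lower). The part of these cells in the Foxp2, Foxa1 and Sox13 differences was not tested.

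Sox13 was at 79.0, 77.7 and 32.2 CPM without and 27.0, 36.6 and 26.6 CPM with GFP in the small intestine, and the groups overlapped through the third GFP-negative library. Its fall of 1.07 ± 0.31 (adjusted p = 0.0411) lost its call with the replicate number as a block (0.0613) and with voom (0.0617). The call was also lost on the log2(TPM + 1) scale (0.214) and with only these 2 groups in the fit (0.158). The Sox13 call was lost without GFP-negative replicate 1 (0.128) or 2 (0.0913), and without GFP-positive replicate 1 (0.123), 2 (0.055) or 3 (0.119). Sox18 was at 33.4, 30.5 and 6.27 CPM without and 44.3, 73.6 and 23.7 CPM with GFP here, and Sox7 at 70.0, 40.1 and 28.1 against 26.0, 30.6 and 11.2 CPM. Neither SoxF factor was called (1.01 ± 0.66, adjusted p = 0.412, and -1.02 ± 0.48, adjusted p = 0.219). The third library of each small intestinal group had the lowest value of both genes and also of the pan-endothelial sum, 901 of 901 to 2340 CPM without and 917 of 917 to 3040 CPM with GFP. The third GFP-negative library was also the one with high Ptprc and B and plasma cell markers. The part of any of these cells in the Sox18 and Sox7 values was not tested. Foxc1 was at 18.0, 9.09 and 6.91 CPM without and 7.65, 11.4 and 2.95 CPM with GFP (-0.62 ± 0.61, adjusted p = 0.613). Foxo1 was at 112, 66.6 and 116 CPM against 118, 109 and 95 CPM. Its difference of 0.13 ± 0.21 has a 95% interval of -0.29 to 0.55, so a change of the size seen in the colon lies outside it. Foxp1 was at 170, 92.4 and 133 CPM without and 129, 153 and 140 CPM with GFP (0.09 ± 0.21, adjusted p = 0.845). Sox6 was at 73.9, 46.1 and 34.9 CPM without and 11.5, 12.1 and 42.4 CPM with GFP, and those groups overlapped (-1.24 ± 0.61, adjusted p = 0.252).

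The other genes lower in colon GFP-positive cells were not called in the small intestine. Foxp4 was at 41.6, 87.1 and 56 CPM without and 40.7, 46.9 and 38.7 CPM with GFP there (-0.55 ± 0.23, adjusted p = 0.168). Sox4 was at 56.1, 84.1 and 40.8 against 64.7, 70.5 and 48.7 CPM (0.02 ± 0.24, 0.975), and Sox12 at 9.62, 15.9 and 10.1 against 6.74, 8.77 and 15.7 CPM (-0.20 ± 0.37, 0.816). In all of these the groups overlapped.

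**Figure D4:**
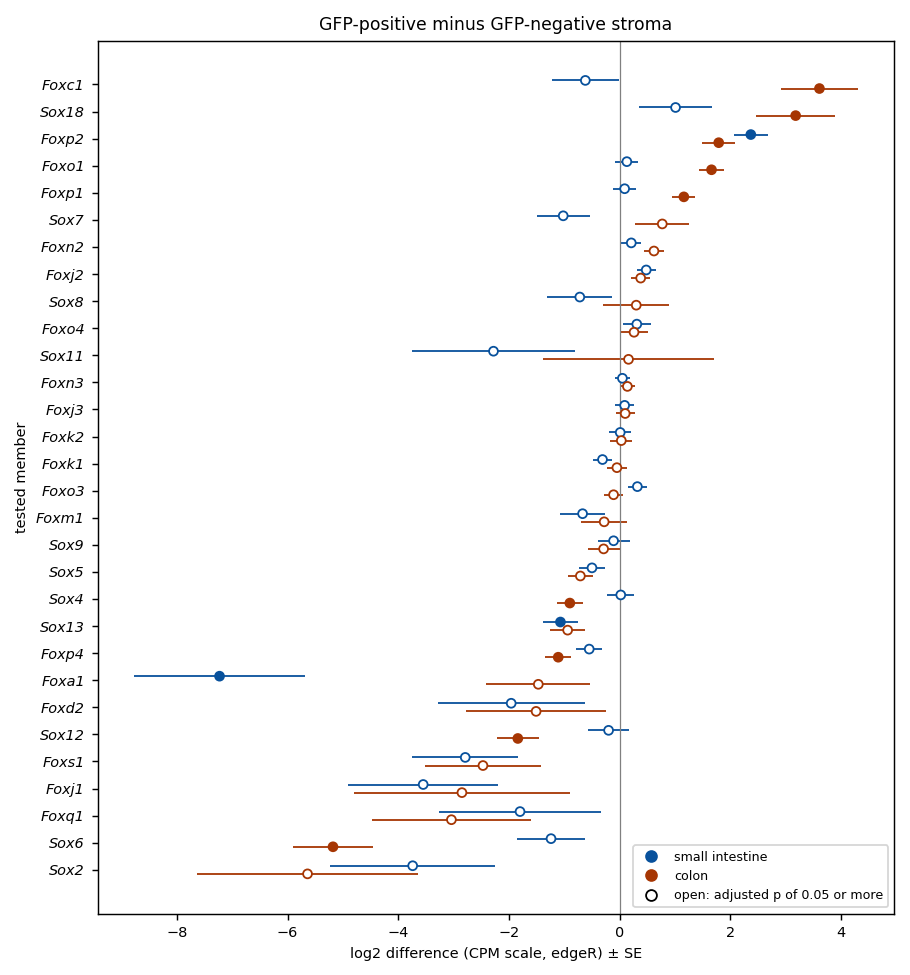
Log2 difference between GFP-positive and GFP-negative stroma for each tested member, small intestine and colon side by side, with SE and called values filled. Foxp2 is called higher in both tissues, and the fitted values of Foxa1, Sox2 and Foxj1, where a group is at or near 0, depend on the prior count.

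The difference between the GFP differences of colon and small intestine was tested directly. Foxc1 and Foxo1 were called, 6.67% of the tested members beside 2.06% of all tested genes (1.16% higher and 0.895% lower). For Foxc1 the colon difference exceeded that of the small intestine by 4.23 ± 0.93 log2 (adjusted p = 0.0383), and for Foxo1 by 1.53 ± 0.30 (adjusted p = 0.0253). Each was higher in colon GFP-positive than in colon GFP-negative libraries and showed no called GFP difference in the small intestine. The lowest group mean of both was in the colon GFP-negative libraries, 1.28 CPM for Foxc1 and 38.7 CPM for Foxo1. Between the GFP-positive groups of colon and small intestine neither was called (1.07 ± 0.62, adjusted p = 0.441, and 0.19 ± 0.21, 0.752). Leaving out each of the 12 libraries in turn kept the Foxc1 call 4 times and the Foxo1 call as often. For Foxc1 the adjusted p was highest without colon GFP-negative replicate 2 (0.112), and it was above 0.05 also without colon GFP-negative replicate 3, any colon GFP-positive library, small intestinal GFP-negative replicate 1 or GFP-positive replicate 1 or 3. For Foxo1 it was highest without colon GFP-negative replicate 3 (0.0809), and above 0.05 also without the other colon GFP-negative libraries, colon GFP-positive replicate 1 or 2, or the same small intestinal libraries as for Foxc1. Sox6 (-3.94 ± 0.91, adjusted p = 0.0535) and Foxp1 (1.07 ± 0.29, 0.0806) missed the threshold. Foxp2, called in both tissues, gave -0.58 ± 0.42 (0.611) and Sox18 2.17 ± 0.95 (0.327). Sox13, called by edgeR in the small intestine but not in the colon, gave 0.13 ± 0.43 (0.95). On the log2(TPM + 1) scale neither call held (0.086 for Foxc1 and 0.281 for Foxo1), and with voom that of Foxc1 was lost (0.0616). No member was called lower by edgeR, where 3 were lower at an unadjusted p under 0.05, and DESeq2 called Sox6 lower. Beside Foxc1 and Foxo1, DESeq2 also called Foxp1 (0.0119) and Foxa1 (0.0455) higher.

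The tissues were compared within each GFP state. Of GFP-positive libraries, Foxa1 was called higher and Sox6 lower in the colon, 2 of 30 tested members (6.67%) beside 4.57% of all tested genes (2.75% higher and 1.81% lower). Foxa1 was at 1.1, 0.66 and 5.83 CPM in colon GFP-positive cells and at 0 in those of the small intestine. That is at least 26.5-fold higher by the same floor (adjusted p = 0.0202). The call was lost without colon GFP-positive replicate 3 (0.0602) or any of the 3 small intestinal GFP-positive libraries (0.0552 to 0.0677), with voom (0.189), on the log2(TPM + 1) scale (0.536) and with only these 2 groups in the fit (0.0503). The epithelial sum was 269, 530 and 1570 CPM in colon GFP-positive replicates 1, 2 and 3, and 7 epithelial markers were called higher. Foxa1 and the sum were both highest in replicate 3, while replicates 1 and 2 stood in opposite order. The part of epithelial cells in the Foxa1 difference was not tested. Sox6 fell by 2.73 ± 0.68 (adjusted p = 0.0472) between the GFP-positive groups of small intestine and colon, whose libraries did not overlap. It was not called without small intestinal GFP-positive replicate 1 (0.0513) or 3 (0.132) or colon GFP-positive replicate 1 (0.0972) or 2 (0.164). The Sox6 call was also lost with the replicate block (0.0666), with voom (0.147), on the log2(TPM + 1) scale (0.352), with only these 2 groups in the fit (0.115) and with no filter on low counts (0.164). Without small intestinal replicate 3, whose Sox6 level of 42.4 CPM was the highest of its group, the fall was 1.84 on the log2 scale. Sox12 missed edgeR's threshold between the GFP-positive groups (-1.36 ± 0.38, adjusted p = 0.0659). Its libraries did not overlap, and DESeq2 called it lower in the colon (0.0192).

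Of GFP-negative libraries, Foxc1, Foxo1 and Sox7 were lower in the colon, 3 of 30 tested members (10%) beside 4.21% of all tested genes (2.2% higher and 2.01% lower in the colon). Foxo1 was lower in every colon library (35.0 to 40.7 against 66.6 to 116 CPM), by -1.34 ± 0.22 (adjusted p = 0.00605), and was called in all 6 fits without a library but not on the log2(TPM + 1) scale (0.245). Foxc1 was lower by -3.16 ± 0.70 (adjusted p = 0.0268) and Sox7, another endothelial factor, by -2.12 ± 0.50 (adjusted p = 0.0368). The groups overlapped for neither gene. Each call was lost without small intestinal GFP-negative replicate 1 (0.0767 for Foxc1 and 0.103 for Sox7), colon GFP-negative replicate 2 (0.119 and 0.145) or replicate 3 (0.112 and 0.13). Both were lost on the log2(TPM + 1) scale (0.122 and 0.0941) and with only these 2 groups in the fit (0.0787 and 0.084), Foxc1 also with voom (0.0681) and Sox7 with no filter on low counts (0.0713). The pan-endothelial sum was 901 to 2340 CPM in the small intestinal and 372 to 850 CPM in the colon GFP-negative libraries (1 of 12 markers called lower). All 12 were at an unadjusted p under 0.05 and DESeq2 called 8 (list median -1.87 log2, against -0.06 over all tested genes). The blood endothelial sum was 1130 to 3820 and 461 to 1140 CPM (2 of 13 lower). Of these 13 markers, 8 were at an unadjusted p under 0.05 and DESeq2 called 7 (median -1.99). Other lists moved too, among them enteric glia (3 of 11 lower) and pericyte markers (2 of 9 lower). Of the telocyte and villus tip fibroblast markers, 5 of 12 were called higher. The part of any of these cells in the lower Foxc1, Foxo1 and Sox7 was not tested. Foxp2 did not pass the test in either state (0.05 ± 0.29, adjusted p = 0.966, and 0.63 ± 0.30, 0.299).

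**Figure D5:**
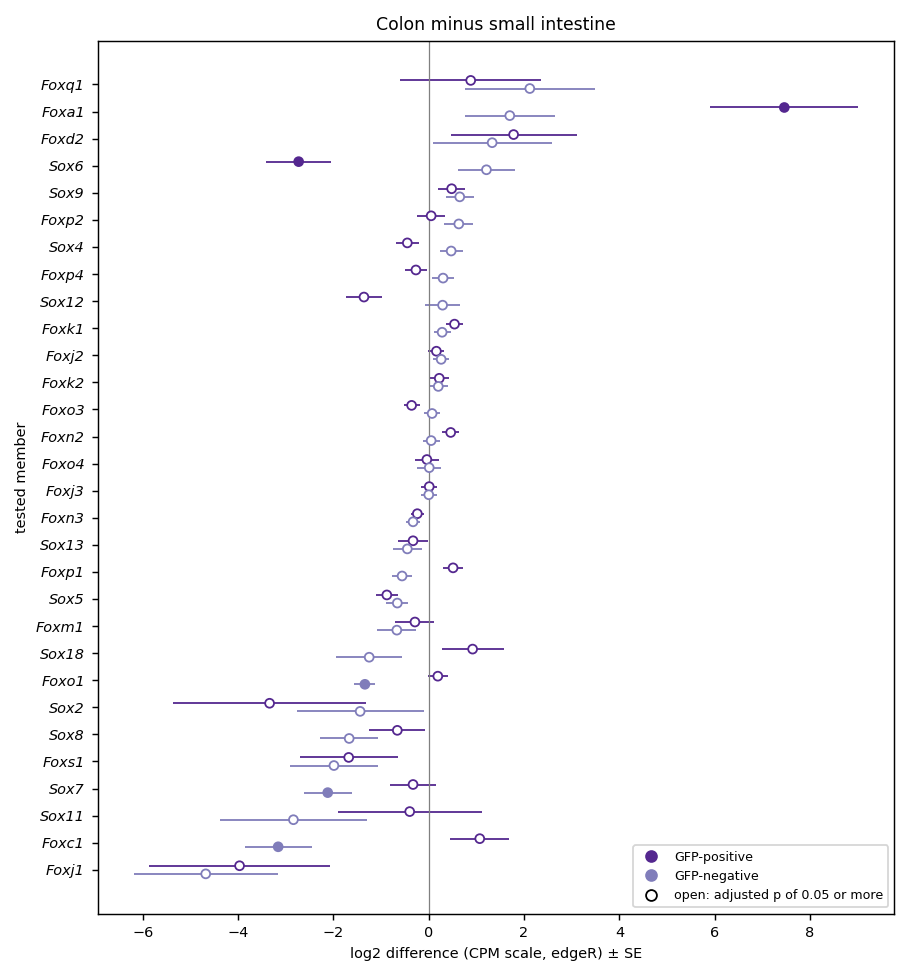
Log2 difference of colon minus small intestine for each tested member, in GFP-positive and GFP-negative stroma, with SE and called values filled. Foxc1, Foxo1 and Sox7 lie below 0 in GFP-negative libraries, and the fitted Foxa1 value in GFP-positive libraries depends on the prior count.

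The other 18 tested members were called in none of the 5 comparisons by edgeR. DESeq2 called some of them: Foxs1 in the small intestine (adjusted p = 0.0122), Foxn2 (0.0291) and Sox5 (0.0485) in the colon, Sox5 (0.0185) and Foxk1 (0.0383) between GFP-positive groups, and Foxj1 (0.0465) and Foxn3 (0.0464) between GFP-negative groups. Foxn3 was at 127, 130 and 128 CPM in small intestinal GFP-negative, 137, 129 and 134 in GFP-positive, 97.1, 112 and 96.6 in colon GFP-negative and 114, 107 and 118 CPM in colon GFP-positive libraries. Foxj3, a factor known from muscle and testis, was at 50.6, 52.1 and 38.8, at 58.6, 44.5 and 47.1, at 46.1, 49.6 and 46.0 and at 51.1, 51.8 and 48.6 CPM in the same order. Both were nearly even, with Foxn3 lowest in the colon GFP-negative group. Foxo3 was at 113, 132 and 100 CPM in the small intestine without GFP and 165, 127 and 138 CPM with GFP, which overlapped (0.32 ± 0.17, adjusted p = 0.299). Sox5 was at 46.3, 30.6 and 34.4 CPM in small intestinal GFP-negative, 25.9, 21.5 and 31.4 in GFP-positive, 27.1, 22.4 and 20.9 in colon GFP-negative and 12.6, 13.3 and 16.9 CPM in colon GFP-positive libraries. It was lowest in the colon GFP-positive group, and the regional difference in GFP-positive cells missed the threshold (-0.88 ± 0.23, adjusted p = 0.0519). Foxn2, a checkpoint relative of Foxn3, gave 0.62 ± 0.18 in the colon (0.0566), where its groups did not overlap. Foxk1 and Foxk2, repressors of autophagy genes, gave -0.05 ± 0.18 and 0.03 ± 0.20 in the colon. Foxm1, the factor of mitotic genes, gave -0.67 ± 0.40 between the small intestinal and -0.28 ± 0.41 between the colon groups. Sox9, the SoxE factor of cartilage and of epithelial progenitors, gave -0.11 ± 0.29 and -0.29 ± 0.29, and its relative Sox8 -0.72 ± 0.59 and 0.30 ± 0.60. Sox8 counts may hold reads of the antisense gene 2810468N07Rik, since the use of strand in the counting is not given in the sources used here. The remaining tested members were low: Foxd2, Foxj1, Foxq1, Foxs1, Sox11 and Sox2. Foxs1, known from perivascular cells, gave -2.79 ± 0.96 in the small intestine (adjusted p = 0.0872), and Foxj1, the factor of motile cilia, -3.55 ± 1.35 (0.134). Sox2, a neural and glial factor, was at 0 in the colon GFP-positive libraries and overlaps Sox2ot in the annotation. Foxj2 gave 0.48 ± 0.17 and 0.38 ± 0.17, and Foxo4 0.31 ± 0.25 and 0.26 ± 0.25, in small intestine and colon.

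The 13 members that were not tested had few counts. Their highest count in any library was 26 for Foxa2, 12 for Foxa3, 3 for Foxb1, 4 for Foxh1, 7 for Foxn1, 9 for Foxo6, 12 for Foxp3, 13 for Foxr1, 1 for Foxr2, 17 for Sox1, 16 for Sox21, 2 for Sox3 and 13 for Sox30. Foxp3, the factor of regulatory T cells, overlaps Ccdc22 and other genes, so its few counts are uncertain. A further 13 annotated genes of the same name pattern, such as Foxd1 and Sox15, are not analysed here.

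Genes known to work with these factors were counted from fixed lists. Of 19 tested FoxO target genes, edgeR called 1 higher and 2 lower in the colon, beside 8.69% of all tested genes (median -0.07 log2, against -0.03 over all tested genes). S1pr1, the sphingosine phosphate receptor of vessels and lymphocytes, was higher by 3.59 ± 0.63 (adjusted p = 0.00478), from 18.2 to 218 CPM. Fbxo32, a ubiquitin ligase subunit of muscle wasting, was lower by -1.01 ± 0.23 (0.0141) and Cited2 by -1.20 ± 0.27 (0.0143). In the small intestine edgeR called 1 of the same 19, Cited2, lower by -1.01 ± 0.27 (0.0282), beside 10.9% of all tested genes (median 0.02, against -0.03). DESeq2 called 4 of the 19 in the colon and 3 in the small intestine. Of the tested PI3K, AKT and SGK genes, Sgk3, a kinase that can phosphorylate FoxO proteins, was higher in the colon by 2.31 ± 0.27 (adjusted p = 0.00033), from 13.3 to 65.9 CPM. It was higher in the small intestine by 0.99 ± 0.26 (0.0265), together with Pik3r1 by 0.76 ± 0.19 (0.0198). None of 15 FoxM1 target and mitotic genes was called in either tissue by edgeR, with 3 and 0 of them at an unadjusted p under 0.05 and 3 and 0 called by DESeq2. Of 6 tested cartilage targets of Sox9 and SoxD factors, 1 was called higher and 1 lower in the colon, Comp by 5.74 ± 1.42 (0.0278) and Hapln1 by -3.53 ± 0.98 (0.0492), with a list median of -0.08. In the small intestine 2 of the 6 were called lower (median -2.27): Col11a1 by -5.82 ± 1.05 (0.00372), and Col9a2, at a mean of 10.2 CPM without GFP and at 0 with GFP (0.0213). The shares of all tested genes given above for each tissue are the background of these counts too. Of 10 corepressors, 1 was called in the small intestine, Tle1, a Groucho-type partner of several Fox factors, higher by 0.82 ± 0.22 (0.0301), and none was called in the colon by edgeR, with 3 at an unadjusted p under 0.05 and 1 called by DESeq2.

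The relatives that the rule left out give a frame for the subfamilies. Foxc2, the sister of Foxc1, was higher in the colon GFP-positive libraries by 3.08 ± 0.83 (adjusted p = 0.0366). It kept that call in 1 of 6 fits without a colon library, the one without GFP-positive replicate 3, with an adjusted p of up to 0.154 without GFP-positive replicate 2, and lost it with voom (0.115). Sox17, the third SoxF factor, was at a mean of 24.5 CPM in small intestinal GFP-negative libraries and at 0 in the GFP-positive ones (adjusted p = 0.0047). With voom that call was lost (0.0632). In the colon it was not called by edgeR (-2.93 ± 1.15, adjusted p = 0.186), while DESeq2 called it lower (0.0367). Foxd3 was at a mean of 9.72 CPM in small intestinal GFP-negative libraries and at 0 in the GFP-positive ones (adjusted p = 0.00674). Sox10 was at means of 43.1 and 0.532 CPM there (-6.31 ± 1.22, 0.00785). Both calls were kept in all 6 fits without a small intestinal library. Neither was called in the colon by edgeR (0.136 for Foxd3 and 0.0979 for Sox10), while DESeq2 called Foxd3 lower (0.034). Foxf1, Foxf2 and Foxl1, forkhead genes of gut mesenchyme, were lower in the colon GFP-positive libraries, by -1.76 ± 0.44 (0.0266), -3.15 ± 0.45 (0.00108) and -4.52 ± 0.93 (0.00969). The Foxf1 call was lost in each of the 6 fits without a colon library (0.0589 to 0.115), with the replicate block (0.0605) and with no filter on low counts (0.106).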

How the data were processed

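Per the submitters' processing notes, the authors used Salmon 1.1.0, R 3.6.1 and the mm10 build; the annotation, use of strand and rounding are not given in the sources used here. The deposited expected counts are whole numbers in 100% of cells and were used as they are. The deposited log2 table holds log2(TPM + 1) and gave levels per length. GENCODE M21 (GRCm38) gave symbols to 31974 of 32052 genes, 18027 of them protein coding. The members and gene lists were chosen with earlier results of these data known.

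Genes passing filterByExpr (minimum count 10) numbered 16757. edgeR 4.0.16 in R 4.3.3 fitted 1 mean per group over all 12 libraries with TMM scaling (glmQLFit robust, glmQLFTest), with Benjamini-Hochberg adjustment over all tested genes, checked on simulated data. The 5 comparisons share groups, so their results are not independent. Alternatives used DESeq2 1.42.0 and limma 3.58.1. Genes named with every library value are the called members and, of the 10 members with the highest mean level per length, those not called. Rspo3, Col1a1, Epcam and Ptprc are named as checks of the sort, and motifs were chosen after the letters were seen. Same-numbered small intestinal libraries deviated together (r = 0.323, 0.179 and 0.166 over genes), and those of the colon did so less (0.009, 0.047 and 0.09). Between the tissues GFP-negative replicate 3 gave r = 0.223, and the other same-numbered libraries 0.02 to 0.098. The main fit held no replicate block, so its p-values ignore any pairing. A block by replicate number was fitted as an alternative, within each tissue for the GFP comparisons and across the tissues for the regional ones. The sample descriptions share a number prefix across the tissues only for replicate 3, and its meaning is not given. CD31-sorted samples are not analysed here, and 1 gene of the list of FoxO upstream genes is not reported here.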

Additional observations from a re-analysis of the deposited data

Results flagged for a closer look

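Foxc1 and Foxo1 stood out because their GFP difference differed between the tissues by a test of the difference itself. For Foxc1 the log2 difference in the colon exceeded that in the small intestine by 4.23, and for Foxo1 by 1.53. Each lost its call in most of the 12 fits without a library, as given with the result.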

How the results depend on the processing

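Of 188 refits of the 19 called member results by another filter, scaling, test, unit, sample set or block, 146 kept the call and 42 lost it, and of 126 fits without a library 80 kept it. No called member result changed sign, and no uncalled one became called with the opposite sign. Uncalled ones did change sign without a call, such as Foxp1 in the small intestine (0.09, and -0.4 on the log2(TPM + 1) scale). Of 131 uncalled results, 22 became called in at least 1 alternative. In the small intestine the members called went from 3 to 1 with only the groups compared. Foxa1 and Sox13 were lost there on either TPM scale. On the log2(TPM + 1) scale the 2 members called were Foxp2 higher (0.0493) and Foxs1 lower (0.0246). For the difference of GFP effects they went from 2 to 5 with DESeq2, 1 with voom and 0 with log2(TPM + 1) or log2(TPM + 0.1). Between GFP-positive groups they went from 2 to 1 with no filter, 5 with DESeq2, 0 with voom, 1 on either TPM scale (Foxn2, while Foxa1 and Sox6 were lost), 0 with only the groups compared and 1 with the replicate block, where Sox6 had an adjusted p of 0.0666. Between GFP-negative groups they went from 3 to 5 with DESeq2 and to 1 with only the groups compared. On the log2(TPM + 1) scale they stayed 3 but were other genes, Foxq1 and Sox4 higher and Foxj1 lower, and Foxc1, Foxo1 and Sox7 were lost. Without 1 library each, the counts ranged from 2 to 4 in the small intestine, 6 to 9 in the colon, 0 to 4 for the difference, 0 to 2 between GFP-positive and 1 to 5 between GFP-negative groups. The replicate block ended the Sox13 call in the small intestine (0.0613). The log2(TPM + 1) scale moved the median of all genes to 0.13 and 0.19 in the regional comparisons, from -0.02 and -0.06, and the share of calls higher in the colon to 82.7% and 87.3%, from 60.3% and 52.3%. Of all genes, the 345 calls for the difference ran from 106 to 1095 over the other settings and from 67 to 1057 without 1 library, and the 706 between GFP-negative groups from 337 to 1666 and from 197 to 1227, so the background shares beside the members move as well. The cause of these changes was not tested. Depth limits the low members, whose values rest on few counts.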
